A study of Mus musculus with 72 samples.

Results

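Binding of the transcription factor TFEB was measured in oligodendrocyte nuclei of mouse brain by chromatin immunoprecipitation followed by sequencing (ChIP-seq), and each TFEB pool was read against the input chromatin of the same genotype. The TFEB and input samples of nuclei sorted as OLIG2+ make up 8 of the 72 samples of the series. There were 4 merged columns in all, TFEB and input from wild-type (WT) mice and TFEB and input from SgshKO mice, each merged from 2 samples. The values are tags (mapped reads) per 10M tags of the pool (M stands for mega), counted in windows of 200 bp at 82577 open-chromatin peaks. Because the 2 samples of a pool were merged before deposit, the factor values have no replicate error, and their differences are described by size with no test.

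All mice were of the C57BL/6 strain, and the labels give no age for the factor samples. SgshKO mice lack Sgsh, which encodes N-sulfoglucosamine sulfohydrolase, a lysosomal enzyme of heparan sulfate breakdown whose loss causes the storage disease mucopolysaccharidosis IIIA. Nuclei were fixed with DSG and formaldehyde and sorted as PU.1-, OLIG2+ and NEUN-, so the pools can hold OLIG2+ nuclei of any stage of the lineage. TFEB was precipitated with the antibodies listed as ab2636 and CST 37785. MITF (ActiveMotif #91201) and TFE3 (ab93808, HPA023881 and NBP1-89976) were precipitated from the same kind of nuclei and are read against the same 2 inputs. H3K27ac, a histone mark of active promoters and enhancers, was measured in OLIG2+ nuclei of 4-month-old and 8-month-old mice of both genotypes with 2 samples per group, and counted in windows of 800 bp at the same peaks. These H3K27ac libraries are the measurement with replicates.

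TFEB belongs with MITF, TFE3 and TFEC to the MiT/TFE family of basic helix-loop-helix leucine zipper factors. In fed cells TFEB is phosphorylated at the lysosome and held in the cytoplasm, and when lysosomes are stressed or nutrients are scarce it moves to the nucleus. There it binds a palindromic E-box, often within the longer CLEAR element, near the start sites of genes for lysosomal enzymes, the proton pump and autophagy. In oligodendrocytes TFEB is also known for restraining myelination through the cell death gene Bbc3 (PUMA).

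The letters at such sites are shown first, because the gene groups below differ in how often they hold them. Each line gives 30 bases from RefSeq (GRCm38.p6), 5′ to 3′ on the strand of the gene, centred on the E-box nearest the middle of a TFEB-bound peak. Capitals mark CACGTG, or TCACGTGA where the flanking bases complete the 8-base palindrome.

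Rragc: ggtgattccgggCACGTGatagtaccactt
Naglu: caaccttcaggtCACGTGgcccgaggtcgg
Vps33a: agcgactcggaTCACGTGAacgtcccgtca
Fnip1: tcagtttgctgcCACGTGatacggctcgtc
Sgsh: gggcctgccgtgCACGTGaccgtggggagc
Atp6v0d1: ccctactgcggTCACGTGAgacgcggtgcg
Ctsd: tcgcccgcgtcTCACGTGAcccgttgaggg
Atp6v1a: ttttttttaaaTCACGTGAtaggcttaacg
Clcn7: tccgtcgtcagtCACGTGggcaccgatgat
Mcoln1: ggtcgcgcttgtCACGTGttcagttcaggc
Lamp1: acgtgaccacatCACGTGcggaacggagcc

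The Rragc site lies at chr4:123917309-123917338 (plus strand), 112 bases upstream of the start site. The Naglu site lies at chr11:101070009-101070038 (plus strand), 73 bases upstream and 4 bases from the peak centre. The Vps33a site lies at chr5:123573026-123573055 (minus strand), 28 bases upstream. The Sgsh site lies at chr11:119355522-119355551 (minus strand), 29 bases upstream and 17 bases from the peak centre, inside the promoter of the gene that the mutant mice lack. The Ctsd site lies at chr7:142387908-142387937 (minus strand), 98 bases upstream, and the Mcoln1 site at chr8:3500436-3500465 (plus strand), 71 bases upstream. The Fnip1 site lies at chr11:54438092-54438121 (plus strand), 75 bases upstream, and the Clcn7 site at chr17:25133364-25133393 (plus strand), 15 bases upstream. The v-ATPase sites lie at chr8:105566050-105566079 for Atp6v0d1 and chr16:44139373-44139402 for Atp6v1a (both minus strand), 3 and 131 bases upstream. The Lamp1 window, chr8:13159134-13159163 (plus strand), is 1 of 4 CACGTG sites in that promoter.

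The TFEB pools held 52808841 tags in WT and 22827269 in SgshKO, and 14.1% and 23.8% of these fell in the peaks. The inputs held 52353915 and 20775566 tags, with 3.07% and 3.22% in peaks. The SgshKO input stood apart: 48.9% of the peaks had no tag in it, against 16.0% empty in the WT input. Independent counting at its mean of 8.09 tags, taken as equal at every peak, would leave 0.0305% empty. Tags were therefore spread less evenly than equal levels and independent counting give. How far true levels differ between peaks was not tested. The 95% Poisson intervals cover counting error only and may be too narrow here. The sort carried oligodendrocyte markers: all 24 myelin and oligodendrocyte identity genes and all 6 oligodendrocyte precursor markers had a peak within 1 kb of a start site, while 0 of 14 microglial and 0 of 4 endothelial markers did. Promoter peaks were present at 4 of 10 neuronal markers and 2 of 8 astrocyte markers. The mean H3K27ac of those promoter peaks, in tags per 10M scaled by TMM (trimmed mean of M-values), lay between 202 and 252 in the 4 WT libraries and between 186 and 249 in the 4 SgshKO libraries for the myelin genes. For the precursor markers the ranges were 31.3 to 46.3 and 39.6 to 63.3, and for the 2 astrocyte markers Slc1a3 and Aldoc 58.6 to 64.5 and 50.6 to 58.2. For the neuronal markers they were 2.73 to 6.91 and 7.91 to 9.78. Without scaling, chosen after seeing the data, the neuronal ranges overlapped, at 2.61 to 8.29 and 5.19 to 11.7, and without Gad1 the scaled ranges also did, at 2.99 to 3.71 and 2.45 to 4.93. The part of these markers in the results was not tested.

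TFEB tags exceeded input across much of the open chromatin of oligodendrocytes. A peak is called TFEB-bound here when log2((TFEB + 1)/(input + 1)), averaged over the genotypes, is at least 1, a doubling over input. By this rule 47485 of the 82577 peaks (57.5%) were bound, while 6373 (7.72%) lay at least 2-fold below input. The level was graded: 31570 peaks reached 4-fold, 18534 reached 8-fold and 3382 reached 32-fold. Taken alone, the WT pools gave 46177 bound peaks (55.9%) and the SgshKO pools 47972 (58.1%). The 33151 peaks bound in both were 71.8% of the WT set and 69.1% of the SgshKO set. For scale, the WT input itself was at least 2-fold above the SgshKO input at 36.2% of peaks and 2-fold below it at 22.5%. The bound rule is thus a permissive one, and the levels over input depend on the input used.

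Start sites carried the most TFEB. Of the 20120 peaks within 1 kb of a start site, 13819 (68.7%) were bound, against 33666 of 62457 peaks farther away (53.9%). The median at start sites was 9.66 tags per 10M in WT and 13.1 in SgshKO, with a median log2 over input of 1.92. Intronic peaks had a median log2 over input of 1.18 with 53.8% bound, and intergenic peaks 1.36 with 57.2% bound. Exonic peaks were lowest at 0.72, with 41.7% bound. Since most peaks are distal, 40.2% of all bound peaks were intronic, 29.1% lay at start sites and 24.6% were intergenic.

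TFEB followed the H3K27ac level (TMM-scaled, mean of the 4 WT libraries) up to a plateau. When all peaks were ordered by H3K27ac in WT nuclei and split into 10 equal bins, 35.4% of bin 1, the lowest, were bound (median log2 over input 0.54) and 61.5% of bin 5 (1.56). From bin 6 to bin 10 the share stayed between 63.2% and 65.4%, and the median went from 1.68 to 1.92. Median H3K27ac was 26.5 scaled tags per 10M at bound peaks and 14.5 at the others. The share of start sites does not follow the same course, being 30.0% in bin 5 and 15.3% in bin 10.

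The 10 peaks with the most TFEB over input were mostly distal, and at 9 of them TFE3 was about as high, with a log2 of TFEB over TFE3, scaled by TMM over the 6 factor pools, between -0.43 and 0.20. The highest of all was in an intron annotated to Hivep3, which encodes a zinc-finger factor, at chr4:119937843-119938043, 123265 bp from the start site. It had 802 TFEB tags per 10M in WT and 1698 in SgshKO, with 0 and 3.37 in the inputs. MITF reached 347 and 1110 there and TFE3 746 and 1850. An intergenic peak annotated to Rps24, at chr14:24779096-24779296, had 333 TFEB tags in WT and 757 in SgshKO with no input tag in either genotype, so TFEB was at least 581-fold and 525-fold above the level of 3 input tags. The promoter of the predicted gene Gm33727, at chr17:25518268-25518468, had 453 and 1017 TFEB tags. Distal peaks annotated to the glial regulator Nfia and to the POU-domain gene Pou3f1 were also among the 10.

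The promoter of Nampt was the exception among these peaks in its ratio to TFE3. Nampt encodes the rate-limiting enzyme of NAD salvage. Its peak at chr12:32820120-32820320, 115 bp upstream of the start site, had 174 TFEB tags per 10M in WT and 450.3 in SgshKO with no input tag. MITF had 36.6 and 249 tags and TFE3 only 74.7 and 97.6. On the TMM scale TFEB there exceeded TFE3 by 1.69 and MITF by 0.94 in log2. The ratio to MITF was not particular to Nampt, being 1.41 at the Nfia peak. The RefSeq promoter of Nampt holds no CACGTG in the 250 bases before and 50 after the start, which says only that these letters are not in that window.

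**Figure D1:**
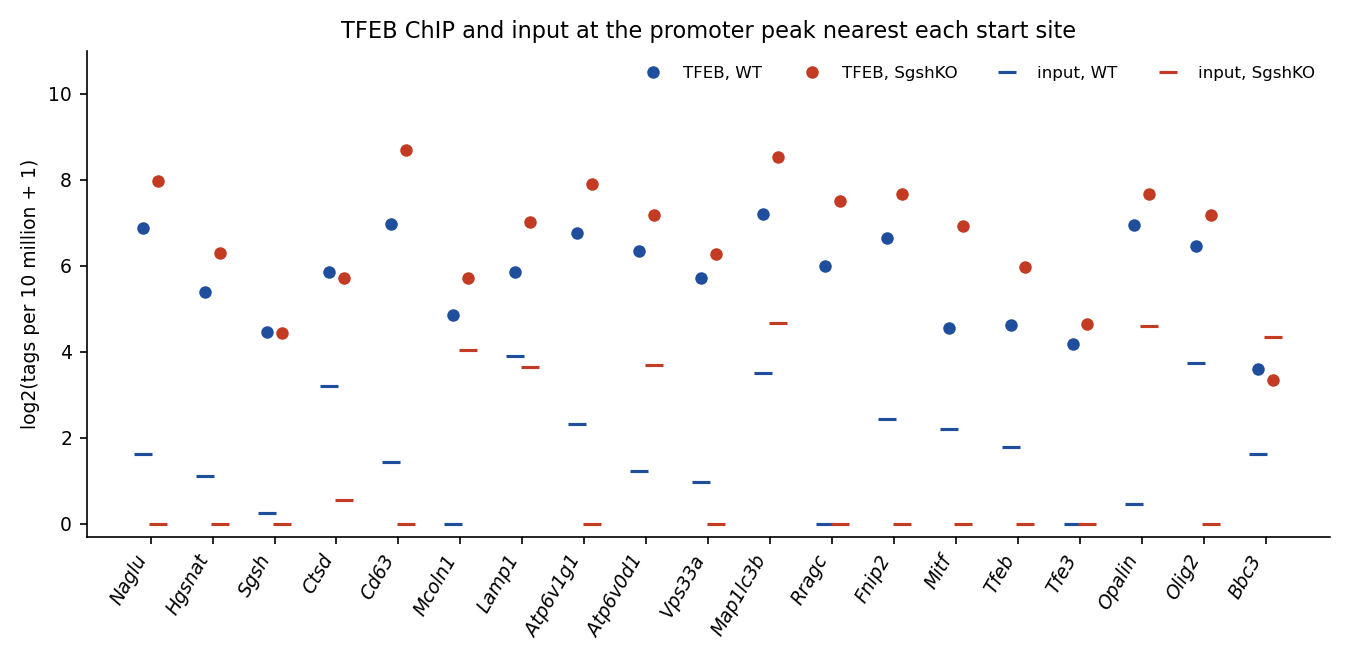
TFEB ChIP (points) and input (dashes) at the promoter peak nearest the start site of 19 genes, as log2(tags per 10M + 1), in the WT pools (blue) and SgshKO pools (red). Each symbol is 1 merged pool, so there are no error bars; TFEB points lie above the input of their own genotype for every gene shown but Bbc3, where the SgshKO input (19.2 tags per 10M) exceeds SgshKO TFEB (9.20).

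Promoters of lysosomal genes carried TFEB more often than promoters in general. Among 11968 genes with a peak within 1 kb of a start site, the peak nearest the start was bound for 9596 (80.2%), with a median log2 over input of 2.47 and quartiles of 1.28 and 3.54. For the 77 genes in the 3 lysosomal lists (hydrolases and their cofactors, membrane and trafficking proteins, v-ATPase subunits) 75 had such a peak and 71 of these were bound, with a median of 3.31. Counting any peak within 1 kb, 72 lysosomal genes were bound, where the share of all genes was 84.9%. Levels above 8-fold were found at 46 of the 75 lysosomal genes and at 4443 of all 11968. When at least 2-fold was required in each genotype, 82.7% of the lysosomal genes and 62.1% of all genes were bound at the peak nearest the start. At 13 of the 75 lysosomal promoters the start site of another RefSeq gene lay within 1 kb of the peak. Binding there cannot be assigned to 1 gene. Of the genes named in the text, this holds for Atp6v1g1, Atp6v1d, Atp6v0d1, Atp6v1a, Smpd1, Ctns, Ctsa and Idua. It also holds for Flcn and Fnip2 of the nutrient-sensing list.

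The 2 hydrolase-list genes with the most TFEB over input, Naglu and Hgsnat, act in heparan sulfate breakdown, the pathway that Sgsh belongs to. Of 37 hydrolases and cofactors, 35 had a promoter peak and 33 were bound, with a median log2 over input of 3.13. Naglu, the alpha-N-acetylglucosaminidase of that pathway, had 116 TFEB tags per 10M in WT and 251 in SgshKO over inputs of 2.10 and 0, and its 95% counting intervals were 107 to 126 and 231 to 272. Hgsnat, which acetylates heparan sulfate ends in the lysosomal membrane, had 40.7 and 77.5 tags over 1.15 and 0. Sgsh itself, at chr11:119355420-119355620, had 21.2 tags in WT and 20.6 in SgshKO over 0.190 and 0. TFEB was thus present at the Sgsh promoter in both genotypes at nearly equal tags per 10M, with counting intervals of 17.5 to 25.5 and 15.1 to 27.4. On the TMM scale the log2 of SgshKO over WT was -0.56 at this peak, and 0.77 at a second Sgsh promoter peak.

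Other hydrolases named by their levels were Neu1, the lysosomal sialidase, with 54.7 and 103 TFEB tags per 10M, and Smpd1, acid sphingomyelinase, with 33.9 and 51.2. Ctsd, the aspartic protease cathepsin D, had 57.0 in WT and 51.7 in SgshKO over inputs of 8.21 and 0.480. The bound rule was missed by Fuca1, an alpha-fucosidase, with 14.4 and 3.94 tags over 6.69 and 8.18, and by Ctsz, cathepsin Z, with 5.49 and 9.64 over 4.39 and 7.70. Arsa and Gla had no promoter peak under their own name. A RefSeq start-site window of Gla nevertheless held a peak centre, with a TFEB log2 over input of 3.62, under another gene's annotation.

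Among the membrane and trafficking proteins 22 of 23 were bound, with a median log2 over input of 3.34. Cd63, a tetraspanin of late endosomes and exosomes, was the highest lysosomal gene, with 125 TFEB tags per 10M in WT and 416 in SgshKO over 1.72 and 0 in input (chr10:128909701-128909901). Scarb2, the receptor that carries glucocerebrosidase to lysosomes, had 47.9 and 154 tags. Lamp1, a major glycoprotein of the lysosomal membrane, had 56.6 and 129 over relatively high inputs of 13.9 and 11.6. Mcoln1, the TRPML1 calcium channel, had 27.8 and 51.2 tags, but its input was 0 in WT and 15.4 in SgshKO, and its log2 over input was 4.85 in WT and 1.67 in SgshKO. Spns1 was the member not bound at the peak nearest the start. Counting any peak within 1 kb, all 23 were bound.

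The v-ATPase, the pump that acidifies lysosomes, had 16 of 17 subunit and accessory genes bound with a median log2 over input of 3.53. Atp6v1g1 had 107 TFEB tags per 10M in WT and 239.6 in SgshKO over 4.01 and 0. Atp6v1d had 79.7 and 270.3, Atp6v0d1 had 80.9 and 145, and Atp6v1b2 had 52.8 and 105. Of these genes all but Atp6v1b2 had another gene's start site within 1 kb of the peak. Atp6ap1, an accessory subunit gene, was the unbound member with 11.9 and 1.75 tags over 16.0 and 7.70.

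Autophagy and nutrient-sensing promoters also had list medians above the median of all genes. Of 26 autophagy genes 23 were bound, with a median log2 over input of 2.82, led by Vps33a of the HOPS tethering complex (51.9 tags per 10M in WT and 76.7 in SgshKO). Map1lc3b, which encodes LC3B of the autophagosome membrane, had the most tags of that list at 147 and 370 over inputs of 10.31 and 24.6. Sqstm1, the autophagy receptor p62, had 42.8 and 80.2 over 10.9 and 5.29. Gabarapl2, Atg7 and Calcoco1 were not bound at the peak nearest the start.

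Of 24 genes of nutrient sensing at the lysosome 23 had a promoter peak and 22 were bound, with a median of 3.06. Rragc, a Rag GTPase that recruits mTORC1 and TFEB to the lysosome, led with 62.5 TFEB tags per 10M in WT and 181 in SgshKO and no input tag in either. Fnip2 and Fnip1, partners of folliculin, had 99.6 and 202 tags and 61.2 and 80.6 tags. Flcn, folliculin itself, had 43.0 and 49.9 over high inputs of 6.88 and 14.4. Rragd had no peak in the table.

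The family's own genes were bound at the promoter peak nearest the start. Mitf had 22.3 TFEB tags per 10M in WT and 120.5 in SgshKO over 3.63 and 0. A second Mitf promoter peak was not bound. Tfeb had 23.5 and 62.2 over 2.48 and 0, at chr17:47736930-47737130. All 4 Tfeb promoter peaks were bound, but only 22 of its 76 peaks in all (28.9%; 57.5% of all peaks). Of the distal peaks annotated to the family 32 of 91 (35.2%) were bound, against 53.9% of all distal peaks. Tfe3 had 17.2 and 24.1 with no input tag. Tfec had no peak.

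**Figure D2:**
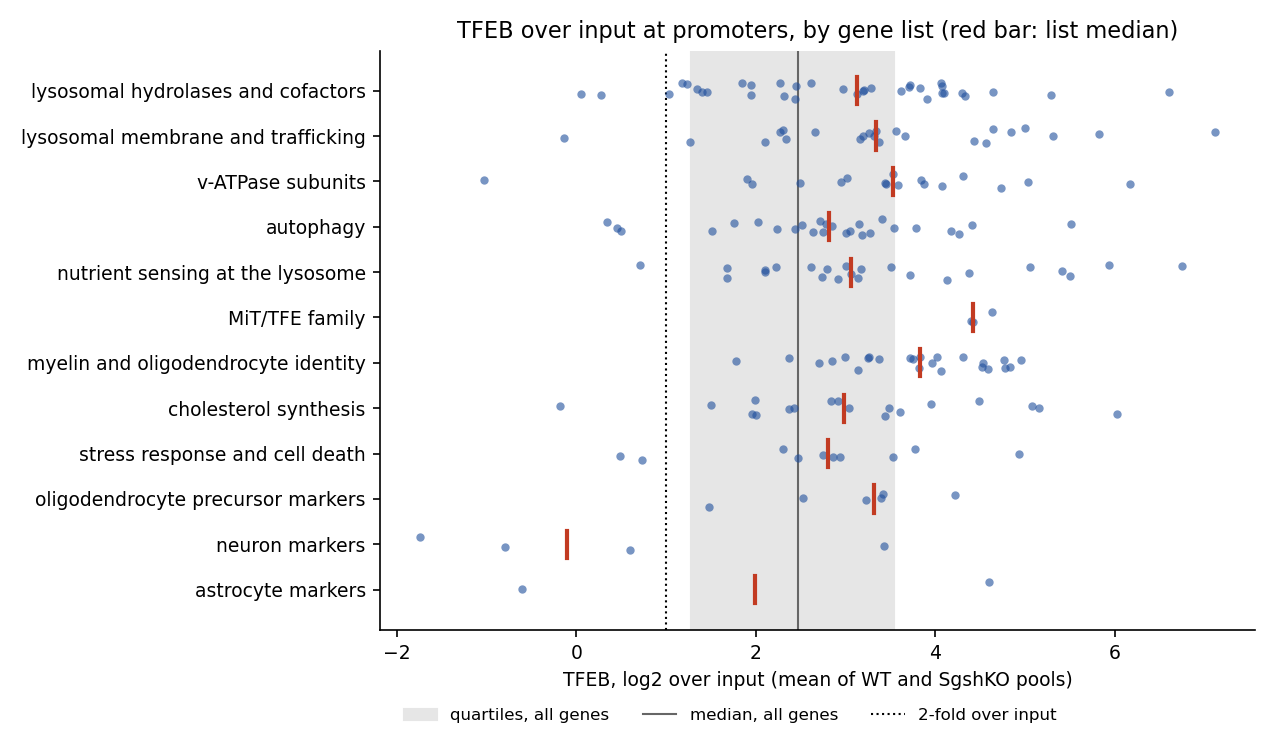
TFEB log2 over input (mean of the WT and SgshKO pools, pseudocount 1) at the promoter peak nearest the start site; each point is a gene, the red bar is the list median, the grey band and line are the quartiles and median of all 11968 genes. The lysosomal and myelin list medians (3.13 to 3.82) lie above the median of all genes (2.47), while 3 of the 4 neuronal markers lie left of the 2-fold line.

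The list with the highest median after the MiT/TFE family was that of the cells' own identity genes. All 24 myelin and oligodendrocyte genes were bound, with a median log2 over input of 3.82, a median of 59.6 TFEB tags per 10M in WT and 121 in SgshKO, and median scaled H3K27ac of 178 against 23.6 over all genes. MITF and TFE3 over input were also high there, at medians of 3.00 and 3.63 against 1.68 and 2.30 over all genes. Olig2, the lineage factor the nuclei were sorted by, had 87.5 and 145 TFEB tags per 10M over 12.4 and 0. Sox10, which drives myelin genes, had 51.5 and 185. Opalin, a myelin glycoprotein gene, had 123 and 202 over 0.380 and 23.1. Fa2h, which makes the hydroxylated fatty acids of myelin lipids, had 197 and 339.5.

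Away from start sites a smaller share of the peaks near myelin genes was bound than of all distal peaks. Of 745 distal peaks annotated to the 24 myelin genes 322 (43.2%) were bound, below the 53.9% of all distal peaks. Mbp, myelin basic protein, had 48 of 122 annotated peaks bound (39.3%; 57.5% of all peaks). Its 2 promoter peaks differed: TFEB was at 220 and 331 tags per 10M at the start site with more signal, and at 3.41 and 11.8 at the other. For the 3 lysosomal lists 74 of 139 distal peaks (53.2%) were bound, near the background.

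Cholesterol synthesis promoters were bound in 94.4%, and stress and cell death promoters as often as all genes. Of 18 cholesterol synthesis genes with a promoter peak 17 were bound with a median log2 over input of 2.98, led by Cyp51, lanosterol demethylase, with 40.1 TFEB tags per 10M in WT and 103 in SgshKO and no input tag. Of 10 stress and cell death genes 8 were bound (80.0%). Ddit3, which encodes the stress factor CHOP, had 126 and 371. Bbc3 was not bound at the peak nearest its start, with 11.2 and 9.20 tags over inputs of 2.10 and 19.2. A second Bbc3 peak 644 bp from a start site had 28.8 and 49.5 over 0.570 and 6.26, a log2 over input of 3.52. Another Bbc3 promoter peak, 700 bp from a start site, had 7.57 and 0 over 0.570 and 0, a log2 over input of 1.22. Of 12 peaks annotated to Bbc3, 8 were bound (66.7%; 57.5% of all peaks).

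The palindromic E-box was more frequent where TFEB was higher. CACGTG, which reads the same on both strands, was present in 7.15% of all 32851 RefSeq start-site windows of 300 bases, and TCACGTGA, which contains it, in 0.974%. Among 8964 windows that held a peak centre, 10.8% had CACGTG. Over 5 equal bins of those windows, from the lowest TFEB over input to the highest, the share went 8.42%, 9.59%, 10.6%, 12.1% and 13.3%. TGACGTCA, the palindrome of the unrelated CREB family, lay between 3.29% and 4.07% over the same bins. Between bound and unbound promoters, however, both motifs differed in a like ratio: CACGTG was in 11.4% and 7.89%, and TGACGTCA in 3.89% and 2.76%. Windows with TGACGTCA had a median TFEB log2 over input of 2.73. Windows with no CACGTG had a median TFEB log2 over input of 2.56, those with 1 had 2.85 and those with 2 or more had 3.23. Base composition was not compared between the bins, and these shares are a description.

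The lists differed in E-box share. CACGTG was in the window of 17 of 47 lysosomal genes whose window held a peak centre (36.2%), 4 of 16 nutrient-sensing genes (25%) and 3 of 16 autophagy genes (18.8%), against 961 of all 8485 such genes (11.3%). It was in 1 of 14 myelin genes, Nkx2-2 (7.14%). All 17 genes had a window with both the E-box and a bound peak. Among them were Sgsh, Naglu, Ctsd, Mcoln1, Lamp1, Clcn7 (a lysosomal chloride-proton exchanger), Atp6v0d1 and Atp6v1a, whose sites are printed above. The windows of Scarb2, Fnip2, Tsc1 and Cyp51, all among the highest of their lists, held no CACGTG.

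**Figure D3:**
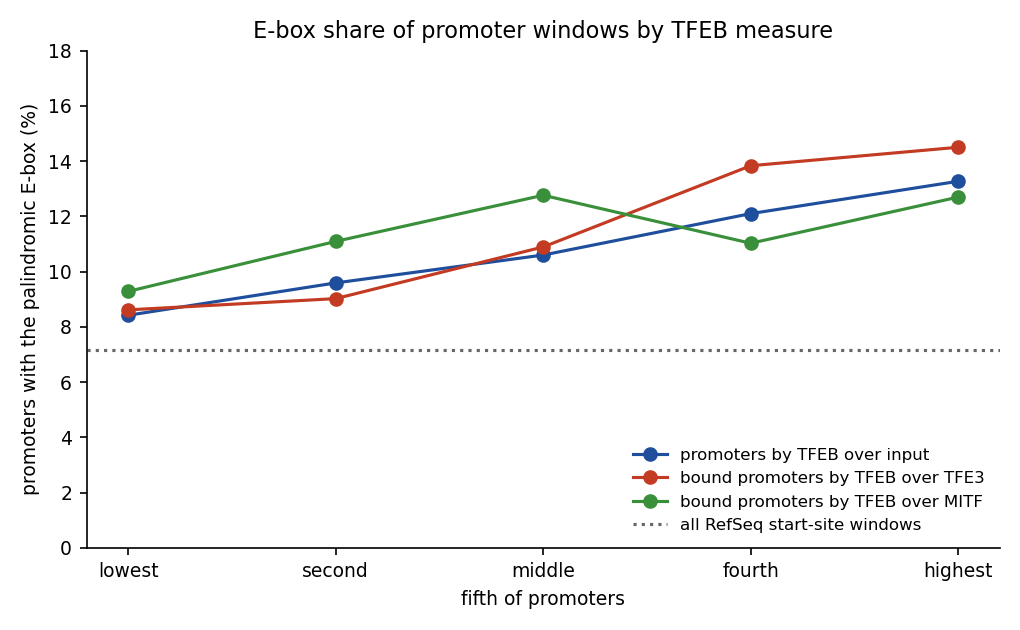
Share of promoter windows of 300 bases that hold the palindromic E-box, in 5 equal bins (horizontal axis, lowest to highest) of 8964 windows ordered by TFEB over input (blue) and of 7481 TFEB-bound windows ordered by TFEB over TFE3 (red) or TFEB over MITF (green); the dotted line is the share of all 32851 windows (7.15%). The red line goes from 8.62% to 14.5%, and the green line is uneven between 9.29% and 12.8%.

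MITF and TFE3 covered open chromatin to a similar extent as TFEB, judged by each factor's own values over the shared inputs. MITF was bound by the same rule at 41315 peaks and TFE3 at 48449, beside 47485 for TFEB. The MITF count was 29483 in WT and 51555 in SgshKO. In the WT MITF pool 6.35% of tags fell in peaks, the lowest of the 6 factor pools, against 18.5% in SgshKO. Comparisons of TFEB with MITF in WT therefore rest on a weak MITF pool.

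Compared ChIP against ChIP after TMM scaling, TFEB was modestly above both relatives at its bound peaks. The median log2 of TFEB over MITF was 0.45 at bound peaks and 0.08 at all peaks. The median of TFEB over TFE3 was 0.17 at bound peaks and -0.02 at all peaks. Bound peaks were chosen on TFEB, so a tilt toward TFEB is built into them. TFEB was at least 2-fold above MITF at 13523 bound peaks (28.5%; 19.8% of all peaks) and at least 2-fold below at 3351 (7.06%; 17.9% of all). Against TFE3 the counts were 7860 (16.6%; 12.6% of all) and 2629 (5.54%; 14% of all). In both genotypes at once TFEB was 2-fold above MITF at 4026 bound peaks (8.48%; 5.72% of all peaks). It was 2-fold below MITF at 1022 (2.15%; 7.31% of all). Against TFE3 these counts were 2754 (5.80%; 4.11% of all) and 688 (1.45%; 4.87% of all).

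Lysosomal promoters leaned to TFEB over TFE3. For the 75 genes the median log2 of TFEB over TFE3 was 0.59, against 0.14 over all 11968 genes, and it was above 0 for 57 (76.0%, against 57.9% of all genes). The medians were 0.37 in WT and 0.63 in SgshKO, against 0.19 and 0.07 over all genes. Hexa, a subunit of beta-hexosaminidase, had 35.2 and 75.4 TFEB tags per 10M and only 3.72 and 25.2 TFE3 tags. Ctns, the cystine exporter, had 19.3 and 64.8 TFEB tags and 7.44 and 11.4 TFE3 tags. The other way round, Lipa, the acid lipase, had 7.95 and 21.03 TFEB tags and 16.4 and 40.2 TFE3 tags, and Tpp1, a tripeptidyl peptidase, had 6.44 and 7.45 against 7.01 and 28.9.

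The other lists were closer to equal. The median log2 of TFEB over TFE3 was 0.31 for nutrient sensing, 0.30 for cholesterol synthesis, 0.23 for autophagy and 0.20 for myelin genes. Against MITF the lysosomal median was 0.40, with 0.29 over all genes. It was 0.92 in WT and 0.32 in SgshKO, against 0.55 and 0.02 over all genes. Within bound promoters the E-box share also followed TFEB over TFE3, from 8.62% in the bin with the lowest ratio to 14.5% in that with the highest.

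The single peaks with the largest factor ratios had few or no tags in at least 1 of the pools compared. The promoter of Cacna2d3, a calcium channel subunit gene, had 16.9 TFEB tags per 10M in WT and 19.7 in SgshKO with no MITF tag in either pool and 1.97 and 1.22 TFE3 tags. An intron peak annotated to Tspan2, a myelin tetraspanin, had 13.8 and 49.9 TFEB tags and 0.880 and 0 TFE3 tags. In contrast, an intron peak annotated to 2810442N19Rik had 7.57 and 0.880 TFEB tags and 42.7 and 56.5 TFE3 tags. An intron peak of Sik3, a salt-inducible kinase gene, had 18.9 and 0 TFEB tags, 25.2 and 28.3 MITF tags and 30.4 and 41.5 TFE3 tags.

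The genotype ratio of TFEB was narrower at strong peaks than at weak ones, and its balance of higher and lower peaks depended on the scale. With TMM scaling the median log2 of SgshKO over WT was 0.13 at bound peaks (quartiles -0.67 and 0.77). Bound peaks were chosen on the mean of the genotypes, so a peak could pass through 1 genotype alone. The rule was met in each genotype at 33151 bound peaks (69.8%), and the shares at bound peaks can reflect this choice. At least 2-fold higher TFEB in SgshKO was counted at 8697 bound peaks (18.3%; 14.8% of all peaks) and at least 2-fold lower at 8846 (18.6%; 31% of all). With scaling by library total the counts were 17080 and 5955, and higher peaks made up 74.1% of both counts rather than 49.6%. The median then moved to 0.65. By the difference of TFEB over the input of each genotype, 24235 bound peaks were at least 2-fold higher and 8406 lower, with a median of 1.05. The share of tags in peaks, 23.8% in SgshKO against 14.1% in WT, differed between the pools in the same direction, and its part in these counts was not tested.

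The width followed the level. Over 5 equal bins of bound peaks by TFEB level, 56.1% of the lowest differed at least 2-fold between the genotypes, mostly lower in SgshKO (39.3%). In the highest bin, with a median of 71.5 scaled tags per 10M, 13.2% did, and 11.9% were higher and 1.31% lower in SgshKO. The SgshKO pool had 16.6% of peaks empty and the WT pool 3.20%.

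**Figure D4:**
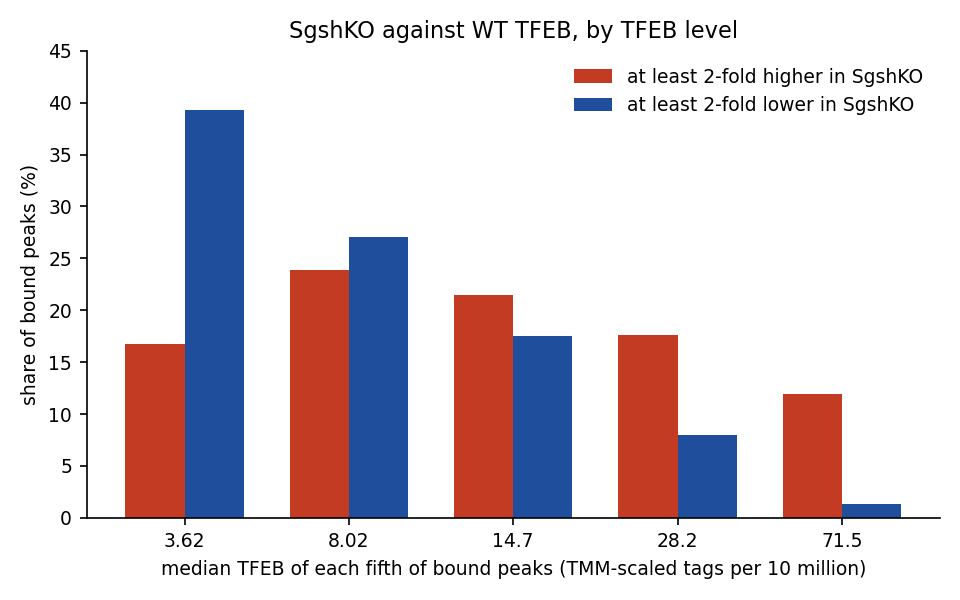
Share of TFEB-bound peaks at which TMM-scaled TFEB was at least 2-fold higher (red) or lower (blue) in SgshKO than in WT, in 5 equal bins of bound peaks (9497 each) by TFEB level, whose median is on the horizontal axis. Lower peaks go from 39.3% in the weakest bin to 1.31% in the strongest, higher peaks from 16.8% to 11.9%.

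Gene lists had these medians and counts beside all genes. The median log2 of SgshKO over WT at the promoter peak was 0.03 over all genes, 0.23 over the 75 lysosomal genes, 0.28 over myelin genes, 0.41 over autophagy genes and -0.02 over cholesterol genes. Among the lysosomal genes 11 (14.7%) were at least 2-fold higher and 10 (13.3%) at least 2-fold lower, against 15.4% and 21.8% of all genes. Of the 26 autophagy genes 6 were higher and 0 lower, and of the 24 myelin genes 4 were higher and 0 lower. Cd63 (125 and 416 tags per 10M), Igf2r, the mannose 6-phosphate receptor (5.11 and 46.9), Gm2a, the GM2 activator (18.9 and 124), and Scpep1, a serine carboxypeptidase (13.3 and 90.7), were among the higher. Cln3, a lysosomal membrane protein gene (19.9 and 7.01), Ctsa, cathepsin A (8.52 and 1.75), and Idua, alpha-L-iduronidase (5.49 and 0), were among the lower. At the peak nearest the start the log2 ratio was 1.84 for Mitf, 0.83 for Tfeb and -0.06 for Tfe3. The other 3 Tfeb promoter peaks had ratios of -0.997, -1.62 and 2.47, and the second Mitf promoter peak had -2.31.

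The 10 largest genotype ratios came from peaks with 0 to 5 tags in 1 pool. The promoter of E2f7, a repressive E2F factor, had 0 TFEB tags per 10M in WT and 34.2 in SgshKO, at least 41.1-fold higher on the TMM scale when the empty pool is set at 3 tags. The promoter of Trim33, an E3 ubiquitin ligase gene, had 0 and 33.7, at least 40.6-fold higher. An intron peak of Bcl3, a nuclear IκB protein gene, had 0.950 and 74.0 over inputs of 0 and 10.6. MITF (2.98 and 12.4 tags), TFE3 (0.440 and 12.6) and H3K27ac (log2 difference 1.95 over both ages) were also higher in SgshKO at that peak. The promoter of Vma21, an assembly factor of the v-ATPase, had 22.2 in WT and 0 in SgshKO, at least 24.7-fold lower. The promoter of Npm3 had 28.4 and 0.440, and an intron peak of Myo10 had 28.0 and 0. These peaks rest on 77 to 169 tags in the fuller pool, in pools whose tags were unevenly spread. Each met the bound rule in the fuller pool alone.

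TFEB in microglial nuclei of the same study allowed a comparison with separate inputs. In nuclei sorted as PU.1+, 33222 of 91770 peaks (36.2%) were TFEB-bound by the same rule. A microglial peak overlapped 22079 of the oligodendrocyte peaks over most of the window. At these shared peaks 15448 were bound in oligodendrocytes and 8875 in microglia, and the 7129 bound in both were 46.1% of the oligodendrocyte set and 80.3% of the microglial set. At the shared peaks near start sites the same shares were 52.6% and 86.5%, and at the shared distal peaks 35.8% and 68.8%. Of the shared peaks as a whole 70.0% were bound in oligodendrocytes and 40.2% in microglia, near start sites 78.8% and 47.9%, and at distal sites 59.3% and 30.9%. The 60498 oligodendrocyte peaks without a microglial counterpart were bound in 53.0%.

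The gene lists ordered differently in the 2 cell types. In microglia 62 of 74 lysosomal genes (83.8%) were bound at the promoter, against 46.7% of all genes, with a median log2 over input of 2.61 against 0.87. Of 12 myelin genes with a microglial promoter peak 6 were bound, with a median of 0.87, where in oligodendrocytes all 24 were bound with a median of 3.82. Cholesterol synthesis genes had a median of 0.48 in microglia and 2.98 in oligodendrocytes. Sort, input and depth differ between the 2 tables, and these differences were not tested.

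H3K27ac at TFEB-bound peaks changed in SgshKO mice at few sites. In these sorted pools a different mix of OLIG2+ cells and a change within each cell cannot be told apart. In limma fits to all 78516 peaks that passed the filter, with Benjamini-Hochberg adjustment at 0.05, 161 peaks (0.205%) were called at 4 months, 7 (0.00892%) at 8 months and 100 (0.127%) with the ages averaged. Of 46265 TFEB-bound peaks tested, 99 were called at 4 months (55 higher and 44 lower in SgshKO), 5 at 8 months (3 higher, 2 lower) and 67 in the average (43 higher, 24 lower). The difference between the ages was called at 8 TFEB-bound peaks, or 0.0173% against 0.0408% of all tested. The bound shares of 0.214%, 0.0108% and 0.145% are near those of all peaks. Peaks with at least 2-fold higher TFEB in SgshKO were called at 22 of 8316 over both ages (0.265%; 16 higher, 6 lower), and those with at least 2-fold lower TFEB at 8 of 8475 (0.0944%; 4 higher, 4 lower). The counts leaned on single libraries: the 4-month count was 11 without SgshKO replicate 1 of that age and 2223 without WT replicate 1. With scaling by library total the count over both ages was 5 and the median of all peaks moved by -0.12.

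Higher H3K27ac was found at C4b, the gene of complement component 4, at a TFEB-bound promoter peak (chr17:34743841-34744041). C4b has a near-identical neighbour, C4a, and reads may be split between them. It had 28.7 and 19.6 tags per 10M in the WT samples of 4 months, 43.9 and 29.8 in SgshKO, 44.1 and 54.8 in WT of 8 months, and 141 and 159.9 in SgshKO. With the TMM scale used in the fit these were 30.0 and 21.3, 44.5 and 46.3, 38.2 and 45.7, and 130 and 134. The SgshKO samples were above the WT samples at each age on both scales, and the log2 difference over both ages was 1.23 ± 0.19 (SE; limma adjusted p = 0.000735). The peak was chosen by its p in this fit, which favours such a separation. TFEB at this peak was 2.65 tags in WT and 20.2 in SgshKO over inputs of 2.10 and 0.

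An intron peak annotated to Lactbl1, at chr4:136690155-136690355, had 124 and 119.7 H3K27ac tags per 10M in WT and 259 and 132 in SgshKO at 4 months, and 224 and 223 against 327 and 408 at 8 months. The TMM factor of SgshKO replicate 2 of 4 months was 0.643, which put its value at 206 in the fit, beside 263 in replicate 1 and 130.2 and 130.1 in WT. Its log2 difference was 0.79 ± 0.11 (SE; limma adjusted p = 0.000136), and it carried strong TFEB of 211 tags in WT and 511 in SgshKO over inputs of 7.45 and 22.1. An intron peak of St3gal6, a sialyltransferase gene, had a log2 difference of 0.91, and intergenic and intronic peaks annotated to Gm20758 and 2610035D17Rik had 1.13 and 0.96. TFEB at the 2610035D17Rik peak was weak, at 3.22 and 1.75 tags. The Gm20758 peak had 21.02 TFEB tags in WT and 198 in SgshKO.

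Lower H3K27ac was found at distal peaks. An intergenic peak annotated to Fcrl6, at chr1:172617026-172617226, had 61.5 and 55.3 tags per 10M in WT and 8.71 and 8.97 in SgshKO at 4 months, and 70.6 and 52.4 against 32.0 and 37.5 at 8 months. Its log2 difference over both ages was -1.56 ± 0.23 (SE; limma adjusted p = 0.000464). An intron peak of Acoxl had a difference of -1.23, a peak near the collagen gene Col14a1 -1.18, an intron peak of Map3k21 -0.86 and an intron peak of Ldlrad4 -0.74. TFEB at these 5 peaks was weak, between 7.01 and 18.8 tags in WT and between 2.63 and 14.0 in SgshKO. The Map3k21 peak met the bound rule through WT alone, with a log2 over input of 2.76 in WT and 0.79 in SgshKO. With scaling by library total 3 of the 10 named peaks still passed, those of Col14a1, Fcrl6 and Acoxl, and the 5 higher peaks did not (limma adjusted p between 0.183 and 0.802).

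**Figure D5:**
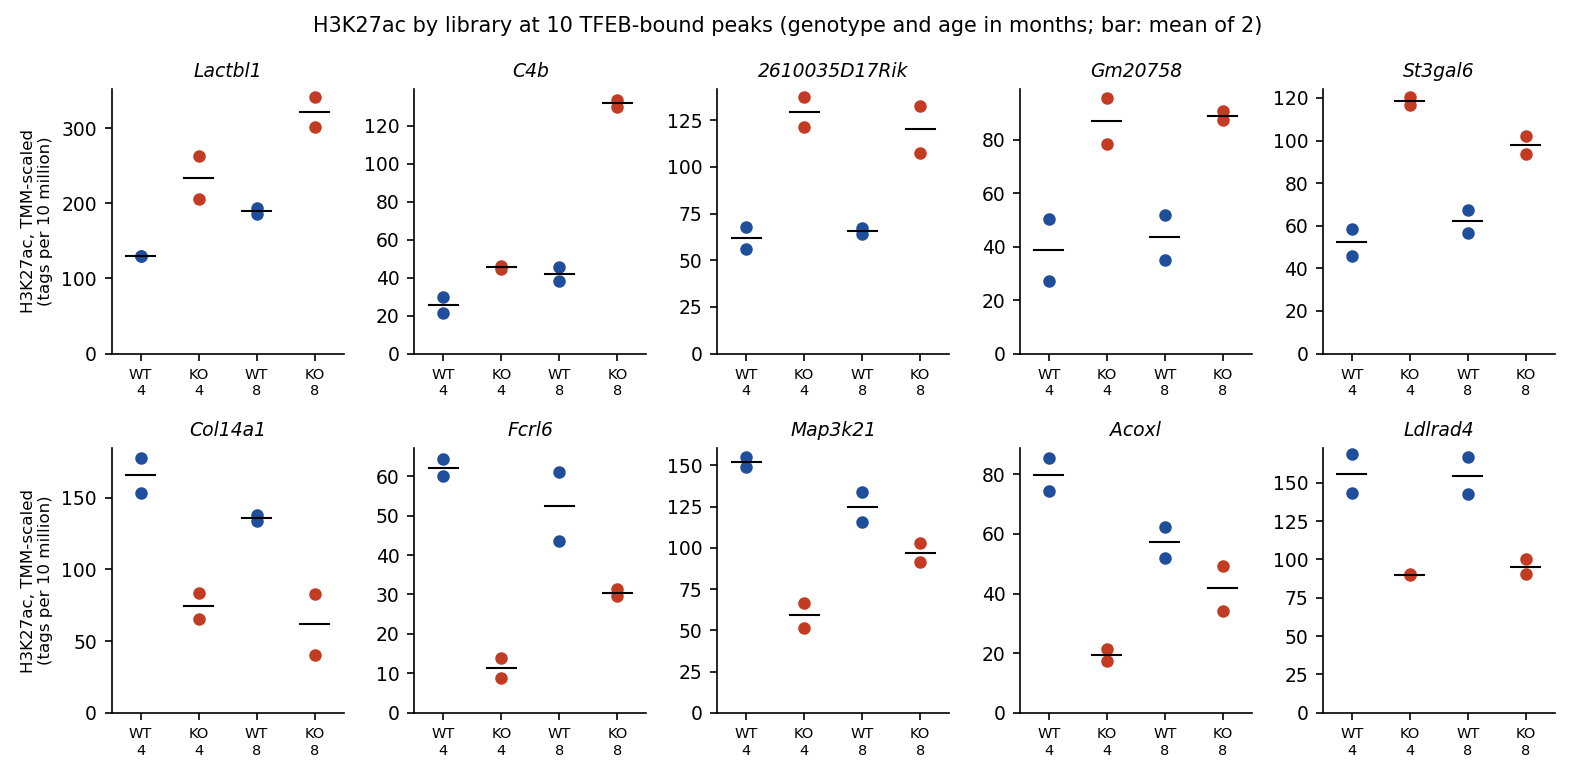
H3K27ac in TMM-scaled tags per 10M at the 10 TFEB-bound peaks with the smallest limma p over both ages, 5 higher (top) and 5 lower (bottom) in SgshKO; each point is a sample (WT blue, SgshKO, written KO, red), columns are genotype and age in months, and bars are means of 2. The SgshKO points lie on 1 side of the WT points at each age in every panel, with or without scaling. The peaks were chosen by p on these same samples, so this separation largely follows from the choice and adds no support.

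At lysosomal promoters no H3K27ac call was made. Of 75 promoter peaks of the 3 lysosomal lists 0 passed in limma at 4 months, with 9 at an unadjusted p under 0.05, and 0 passed in edgeR and in DESeq2, with 8 each. For the average of the ages the count was also 0 in each tool, and an unadjusted p under 0.05 was reached by 9 in limma and by 7 in edgeR and in DESeq2. Of all 78516 peaks tested in limma, 8638 reached an unadjusted p under 0.05 at 4 months, 2785 at 8 months and 6973 in the average. Without WT replicate 1 or without WT replicate 2 of 4 months, 2 of the 75 passed in limma at that age. Their median log2 difference at 4 months was 0.22, against 0.02 over all peaks, and it was -0.02 with library totals as the scale, which put all peaks at a median of -0.20. At 8 months the median was -0.01. At the 24 myelin promoters 0 passed in limma, edgeR or DESeq2, with 0 at an unadjusted p under 0.05 in each. Their medians were 0.01 at 4 months and -0.03 at 8 months, and -0.23 and -0.07 with scaling by library total.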

How the data were processed

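Reads were processed by the authors; Bowtie2, HOMER, DESeq2 and build mm10 appear in the submitters' processing notes without roles. Per the file headers, the deposited signal values are tags normalized to 10M per library, counted at open-chromatin peaks in windows of 200 bp (factors) or 800 bp (H3K27ac), with total tags per column. Factor and input samples were merged by the authors, in pairs except for the WT microglial pools, which hold 3 samples each. Whole tags came back from the values and totals for all columns used (in the H3K27ac tables in steps of 0.5 or 1 tag).

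Ratios used a pseudocount of 1 tag per 10M. Factor pools were scaled by TMM (edgeR 4.0.16) over peaks with 20 tags. H3K27ac was fitted with limma 3.58.1 on TMM-scaled log2 values, 8 libraries as 4 groups of 2, after edgeR's filter on low peaks. DESeq2 1.42.0 and edgeR's quasi-likelihood test on recovered tags were alternatives, and the fit was tested on simulated data. Nothing states that the 2 samples of a group came from separate animals, so p-values measure the spread between these samples. RefSeq promoters (GRCm38.p6) are 300 bases, 250 before the start; 8964 held a peak centre. A microglial peak counted as shared when it overlapped more of the window than it missed. List genes were matched by symbol or by the alias in the deposited table.

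Named peaks were the 10 highest over input; the 5 highest and 5 lowest by SgshKO over WT, TFEB over MITF and TFEB over TFE3 with 20 tags; up to 5 per gene list; 14 fixed genes; and the 5 TFEB-bound peaks with the smallest H3K27ac p in each direction. Further list genes and windows were chosen after their values were seen. Members and lists were chosen with earlier results of these data known. Some genes that the rule names are not reported here.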

Additional observations from a re-analysis of the deposited data

How the results depend on the processing

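TFEB-bound peaks numbered 33151 to 45780 under another pseudocount, fold, tag minimum or the rule in each genotype, and lysosomal genes with any bound promoter peak 63 to 72. Against the WT input for both genotypes and against the summed input, both chosen after seeing the data because the SgshKO input was sparse, the counts were 45017 and 43165 peaks and 69 and 71 genes, and 85.3% and 89.9% of the bound peaks remained. At named peaks TFEB over input was also taken with pseudocount 3 and with these 2 inputs. Of those values 149 moved beyond the counting error of the TFEB tags and 67 did not. Peaks at least 2-fold higher in SgshKO numbered 17080 with scaling by library total and 24235 by the difference of the over-input ratios. The median log2 of TFEB over MITF was 0.94 with scaling by library total, 0.35 with pseudocount 3, 0.66 in WT alone and 0.20 in SgshKO alone. That of TFEB over TFE3 was 0.19, 0.14, 0.11 and 0.22 in the same order. The H3K27ac count at 4 months was 62 with scaling by library total and 79 in edgeR, and 11 to 2223 leaving out 1 library. At 8 months it was 13 with scaling by library total and 22 in DESeq2, and 0 to 35 leaving out 1 library. Over both ages it was 5 and 254, and 14 (without SgshKO replicate 1 of 8 months) to 1078 (without WT replicate 1 of 4 months). Where leaving out a library left 1 sample in a group, that sample was assumed to vary like the other groups. The causes were not tested. Replicate numbers did not pair the libraries (correlations of deviations between -0.0149 and 0.00723), and a replicate block gave 163, 7 and 98 calls. Of the 10 named H3K27ac peaks 6 to 10 passed when 1 library was left out. No called value changed sign. The merged pools give no replicate error, and at 3 tags a WT TFEB value of 0.568 and a SgshKO value of 1.31 tags per 10M are the floors of detection.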
